A study of Saccharomyces cerevisiae W303 with 86 samples.

Results

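The 44 genes described here encode nucleolar proteins that process ribosomal RNA and assemble ribosomal subunits in the budding yeast Saccharomyces cerevisiae. They were chosen by name from a list of systematic identifiers, and the rule uses no measured value, although the list was made with earlier results of these data known. All 44 were found among the 7126 features of each library, and all 44 passed the filter on low values in each comparison. By role they comprise 3 proteins of box C/D small nucleolar ribonucleoproteins (snoRNPs), 4 of box H/ACA snoRNPs, 12 factors of the small subunit, 20 of the large subunit, 2 that serve both subunits and 3 DEAD-box RNA helicases. Their genes lie on 14 chromosomes, 26 of them on the plus strand, with annotated lengths of 177 to 5310 bp and a median of 1492.5 bp.

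Ribosome biogenesis starts in the nucleolus, where RNA polymerase I makes a long precursor RNA that is modified, cut and folded while ribosomal proteins bind to it. Box C/D snoRNPs guide methylation of that RNA and box H/ACA snoRNPs guide its pseudouridylation. The small-subunit processome and the pre-60S particles then mature apart from each other before export. In yeast the genes for these factors are co-regulated as one large regulon that is active in fast growth and turned down under nutrient limitation or stress, which is when general stress genes such as HSP12 are turned up.

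The study measured poly(A) RNA in 78 libraries and ribosome footprints in 8 libraries of strain W303-1A, in 29 groups and 7 sets, with 3 biological replicates per mRNA group (6 for the first wild type) and 2 per footprint group. All cultures were grown to mid-log phase (OD 0.5 to 0.8) in synthetic complete medium with 2% glucose. The OXPHOS set holds cells lacking mitochondrial DNA (rho0) and deletions of atp7 (ATP synthase), cox9 (complex IV) and cor1 (complex III), with their wild type (WT). The puf3 set combines deletion of the RNA-binding protein gene PUF3 with atp7 and rho0, and the puf3-15A set combines rho0 with an allele described in the design as blocking hyperphosphorylation of Puf3. The SNF1 set treats snf1 (a kinase gene) and WT cells with 25 µg/ml ethidium bromide for 48 h, and the MIG1 set compares snf1 mig1 with snf1 cells after that treatment. Ethidium bromide removes mitochondrial DNA, and the design calls these cells rho0, so drug exposure and loss of mitochondrial DNA cannot be told apart in them. The INH1 set holds rho0 cells with the ATPase inhibitor gene INH1 under the copper-inducible CUP1 promoter, with and without 10 mM CuSO4 for 12 h, and plain rho0 and WT cells. Since no group received copper without the construct, copper itself and the induction of INH1 cannot be told apart either. The footprint set holds rho0 puf3, rho0, puf3 and WT cells, treated with cycloheximide at 100 µg/ml for 2 min before lysis.

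The deposited unit is RPKM (reads scaled by gene length and by library size), printed below per library as deposited. Reads recovered from these values numbered 8622304 to 14403034 per mRNA library, except in the MIG1 set with 18807522 to 71107868, and 1149911 to 2983582 per footprint library. Each deleted gene reached 1.77 RPKM or less in its mutants, and INH1 stood at 1909 to 1953 RPKM with copper, against 286 to 301 RPKM with the construct and no copper. Several groups stand apart in genes specific to mating type a and to haploid cells, although W303-1A is a haploid of mating type a. These 11 genes held 0.00178% to 0.00822% of summed RPKM in snf1 cells with and without ethidium bromide, in both groups of the MIG1 set, and in WT cells of the INH1 and footprint sets. They held 0.0640% to 0.0869% in WT cells of the puf3 set and 0.141% to 0.298% in every other group. The α-specific STE3 stayed at or below 10.2 RPKM in all libraries. It is 1 of 4 α-specific genes on the list, and these did not move together. In puf3 against WT cells of the puf3 set, the log2 changes were -0.52 for STE3, -0.15 for MF(ALPHA)2, 0.00 for SAG1 and 0.80 for MF(ALPHA)1. Whether the strains low in a-specific and haploid genes differ from the others in more than their labels was not tested.

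Among untreated WT cells of the 5 mRNA sets that have them, the 44 genes kept similar levels. The highest group mean was 1.31 times the lowest for the median member, against 1.24 times for the 5594 features with at least 10 RPKM in each WT group. DBP2, which encodes a DEAD-box RNA helicase, spread most, with a mean of 408 RPKM in the OXPHOS set and 232.8 RPKM in the puf3-15A set, a ratio of 1.75. The OXPHOS set gave the highest mean for 23 members, and the puf3-15A and SNF1 sets gave the lowest for 23 and 20 members. That order rests on WT libraries 4 to 6 of the OXPHOS set, with which alone this set was highest for all 44 members, whereas with libraries 1 to 3 alone it was highest for 0 and lowest for 8. The labels do not say whether these sets were grown or processed together, so no test of WT levels was made across them.

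The 6 WT libraries of the OXPHOS set did not behave as one group. Members held 0.890% to 0.963% of summed RPKM in libraries 1 to 3 and 1.29% to 1.31% in libraries 4 to 6. The files of libraries 1 to 3 list features in the order of the cor1 files, and those of libraries 4 to 6 in the order of the rho0 files, so results of this set are given against each trio as well. In the puf3 set, WT library 1 stood at 1.25%, against 0.945% and 0.983% for libraries 2 and 3.

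**Figure D1:**
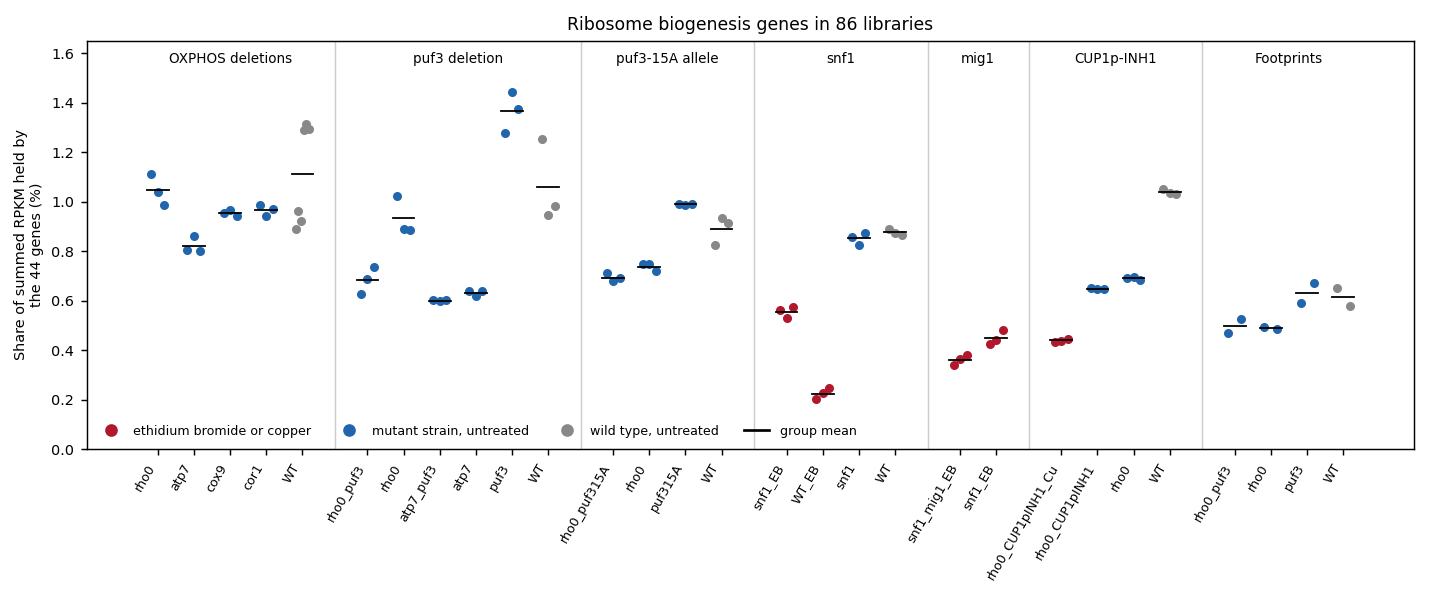
Share of summed RPKM (%) held by the 44 genes in each of 86 libraries (points), with group means (bars), by set. The lowest group is WT with ethidium bromide at 0.225%, against 0.876% in untreated WT cells of the same set, and the WT libraries of the OXPHOS set fall into a trio near 0.9% and a trio near 1.3%.

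After ethidium bromide every one of the 44 genes was lower in WT cells, and the median change was larger than in the other comparisons made here. The members held 0.225% ± 0.0224 of summed RPKM in treated WT cells and 0.876% ± 0.0112 in untreated WT cells (SD, n = 3 each). The median member fell by 2.40 on the log2 scale, against a median of 0.00 for all genes tested, and 44 of 44 were called lower where 37.0% of the 6776 genes tested were (limma, Benjamini-Hochberg adjusted p below 0.05, as for all calls below). In these cultures, fewer cells that express a gene and less of its RNA per cell cannot be told apart. The treated and untreated files of this set also list features in different orders, so any difference in how they were made cannot be told apart from treatment.

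SSF1, NOG2, MAK16, NOG1 and NSR1 had the largest falls. SSF1 (YHR066W, chromosome VIII, 229335 to 230696, R64 annotation), a Brix-domain factor needed for an early pre-60S step, had 2.04, 3.59 and 3.35 RPKM in treated WT cells, against 88.1, 86.5 and 87.2 RPKM in untreated WT cells. The treated libraries were all far below the untreated ones, and the log2 change was -4.45 (SE 0.14, adjusted p = 7.0e-11). SSF1 has a near-identical copy, SSF2, whose log2 change was -1.86, and how reads that fit both were counted is not given in the sources used here, so the split between these paralogs is uncertain. NOG2 (YNR053C, chromosome XIV, 721120 to 723112), a GTPase of late pre-60S particles, had 5.24, 7.26 and 8.42 RPKM in treated WT cells, against 157, 145 and 149 RPKM in untreated WT cells. MAK16, a pre-60S factor (YAL025C), fell by 3.84 and NOG1 (YPL093W), another pre-60S GTPase, fell by 3.69 (SE 0.14 and 0.12). NSR1 (YGR159C, chromosome VII, 806412 to 807656), the yeast nucleolin, had 27.8, 38.4 and 48.0 RPKM in treated WT cells, against 470, 439 and 439.6 RPKM in untreated WT cells, a log2 change of -3.50 (SE 0.15).

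The snoRNP proteins fell least. GAR1 (YHR089C), an H/ACA protein, had 192, 205 and 228 RPKM in treated WT cells, against 519, 484 and 501 RPKM in untreated WT cells, and its log2 change of -1.20 (SE 0.09) was the smallest of the 44. NOP1 (YDL014W, chromosome IV, 427364 to 428347), the fibrillarin methyltransferase of box C/D snoRNPs, had 227, 252 and 266 RPKM in treated WT cells, against 855, 787 and 848 RPKM in untreated WT cells. Its partners NOP56 (YLR197W) and NOP58 (YOR310C) fell by 1.44 and 1.50. By role the median change was -1.50 for box C/D proteins and -1.45 for H/ACA proteins, against -2.69 for small-subunit factors, -2.54 for large-subunit factors and -2.14 for the helicases. TIF6, the anti-association factor of the large subunit, stood with the snoRNP proteins at -1.41.

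Other genes of the pathway moved with the members. All 43 other small-subunit factors and all 46 other large-subunit factors on the lists were lower, with medians of -2.58 and -2.35, for example PNO1 at -3.17 and RSA4 at -3.76. Of 17 genes for RNA polymerase I and its factors, 16 were lower (median -1.71). Of 137 cytosolic ribosomal protein genes, 129 were lower, with a smaller median of -0.59. Among 15 regulators, 7 were lower and 3 higher; TOD6, which encodes a repressor that binds the promoters of this regulon, fell by 2.82, IFH1, a coactivator of ribosomal protein genes, fell by 1.78, and STB3, another repressor, rose by 0.61. All 30 stress-response genes were higher, with a median of 3.22, and their share of summed RPKM was 1.93% to 2.14% in treated WT cells against 0.198% to 0.240% in untreated WT cells. Of the 11 a-specific and haploid genes, 7 were lower and 1 higher.

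Without SNF1 the same treatment lowered the members much less. SNF1 encodes the yeast AMP-activated kinase, which acts when glucose is scarce. Against untreated snf1 cells, treated snf1 cells had 44 of 44 members lower, with a median of -0.75, where 33.2% of genes were called lower. SSF1 had 32.7, 25.4 and 31.8 RPKM in treated snf1 cells, against 101, 82.3 and 96.2 RPKM in untreated snf1 cells, and again changed most, by -1.67 (SE 0.14). DBP3 and UTP10, a helicase and a small-subunit processome protein, changed least, by -0.40 each.

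The difference between these 2 responses, tested as an interaction, was positive for 44 of 44 members, where 23.1% of genes were called higher, and the median was 1.62. NOG2 differed most, by 3.17 (SE 0.18, adjusted p = 1.8e-07), followed by SSF1 at 2.79 and NOG1 at 2.77, and GAR1 differed least at 0.69. In ethidium bromide the snf1 cells thus stood above WT cells for 44 of 44 members (29.4% of genes were called higher; median 1.44). NOG2 had 98.1, 72.4 and 83.6 RPKM in treated snf1 cells, against 5.24, 7.26 and 8.42 RPKM in treated WT cells. The 2 groups did not overlap for this gene, and its log2 difference was 3.19 (SE 0.13).

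The gap did not extend to ribosomal proteins as a class, of which 11 of 137 were lower and 11 higher in treated snf1 than in treated WT cells (median -0.13). Of 30 stress genes 26 were lower there (median -1.41). All 11 a-specific and haploid genes were lower in treated snf1 than in treated WT cells (median -3.31); they held 0.00774% to 0.00822% of summed RPKM in treated snf1 cells, against 0.145% to 0.158% in treated WT cells, and their part in the members' difference was not tested. The interaction compares changes within each strain, but that does not remove a difference between the strains that alters the response.

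In untreated cells, loss of SNF1 had little effect on the members. The median change was -0.15, and 9 of 44 were lower where 16.1% of genes were called lower, a similar share. The lowest were NHP2, an H/ACA protein, at -0.41 and NOP1 at -0.36. All 11 a-specific and haploid genes were lower (median -4.36), and their part in this was not tested. NOP1 had 696, 692 and 749.6 RPKM in snf1 cells, against 855, 787 and 848 RPKM in WT cells, and the groups did not overlap. The count was 3 without WT library 1 or without snf1 library 1, 4 without snf1 library 2, 5 without WT library 2 and 14 without snf1 library 3.

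**Figure D2:**
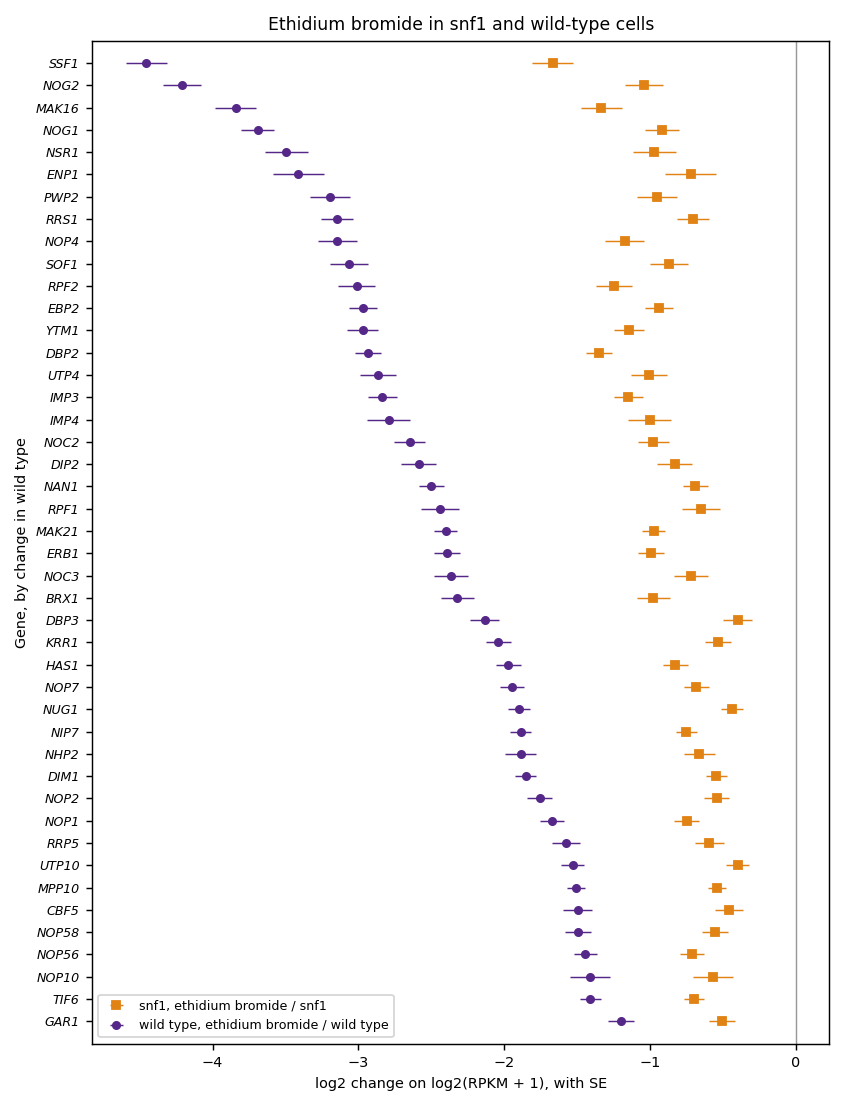
log2 change (on log2(RPKM + 1), with SE) of each of the 44 genes after ethidium bromide, in snf1 cells (orange squares) and in WT cells (purple circles), sorted by the change in WT cells. The WT changes run from -4.45 for SSF1 to -1.20 for GAR1, and the snf1 changes lie nearer 0 for every gene.

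Removing MIG1 from treated snf1 cells lowered many members again, by a smaller amount. MIG1 encodes a repressor of glucose-repressed genes that Snf1 inhibits. Of the 44 members 28 were lower in snf1 mig1 than in snf1 cells, where 15.0% of genes were called lower, and the median was -0.31. The labels' replicate numbers pair these libraries in the data, and with the number as a block 33 were lower. PWP2, a protein of the small-subunit processome, had 21.6, 23.4 and 27.6 RPKM in treated snf1 mig1 cells, against 36.0, 36.7 and 41.7 RPKM in treated snf1 cells. No library overlapped for PWP2, and it changed most, by -0.57 (SE 0.07, adjusted p = 0.0015), followed by YTM1 (pre-60S) at -0.55, SSF1 at -0.53 and DIM1 (18S rRNA dimethylase) at -0.51.

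Calls under mig1 deletion were uneven across roles in the fit without the replicate block. A difference between roles was not tested. Small-subunit factors had 11 of 12 lower and large-subunit factors 15 of 20, whereas none of the 3 box C/D proteins, none of the 3 helicases and 1 of 4 H/ACA proteins was called. NOP10, a small H/ACA protein, had 295, 304 and 346 RPKM in snf1 mig1 cells, against 263, 308 and 338 RPKM in snf1 cells, a log2 difference of 0.13 (adjusted p = 0.28). Of the other factors, 34 of 43 for the small and 26 of 46 for the large subunit were lower, against 5 of 137 ribosomal proteins. Stress genes were higher in 22 of 30 cases (median 0.67). Both groups had a-specific and haploid genes at 0.00524% to 0.00705% of summed RPKM.

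In the INH1 set, rho0 cells had all 44 members lower than WT cells, where 35.6% of genes were called lower, with a median change of -0.78. DBP2 (YNL112W, chromosome XIV, 413639 to 416281) had 129, 121 and 122 RPKM in rho0 cells, against 273, 274 and 269 RPKM in WT cells, a log2 change of -1.24 (SE 0.04). NSR1 followed at -1.21 and SSF1 at -1.18, and NOP10 changed least, by -0.36. Of the stress genes 28 of 30 were higher, and all 11 a-specific and haploid genes were higher too (median 4.00), being near 0 in these WT cells. Their part in the members' change was not tested.

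Carrying the CUP1p-INH1 construct without copper changed the members slightly. The median was -0.11 and 26 of 44 were lower than in plain rho0 cells, where 7.90% of genes were called lower. The changes ran from -0.18 for YTM1 to -0.02 for NOP10, folds of 0.881 to 0.984. The count was 17 without rho0 library 2 and 14 without construct library 2.

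With copper 43 of the 44 members were lower in rho0 cells with the construct, where 36.8% of genes were called lower, with a median change of -0.59. The members' share of summed RPKM was 0.440% ± 0.00705 with copper and 0.648% ± 0.00244 without (SD, n = 3 each). RRP5 (YMR229C, chromosome XIII, 725934 to 731123), a large protein needed for processing toward both subunits, had 41.2, 42.4 and 41.8 RPKM with copper, against 93.3, 94.5 and 97.1 RPKM without. RRP5 fell most, by 1.23 (SE 0.02, adjusted p = 5.4e-13). NOP1 had 257, 272 and 265 RPKM with copper, against 575, 559 and 546 RPKM without, a log2 change of -1.15. For both genes the copper libraries lay far below the others.

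GAR1 and NOP56 fell by 1.08 and 1.06. At the other end, RPF1, an assembly factor of the large subunit (YHR088W), had 64.1, 63.7 and 62.3 RPKM with copper, against 60.6, 56.7 and 61.9 RPKM without, a log2 difference of 0.01 (adjusted p = 0.72) after rescaling. RRS1, which acts with RPF2 in recruiting the 5S particle, NOG2 and the small-subunit factor SOF1 were called but changed by only -0.10, -0.13 and -0.15. NOG2 had 104, 101 and 107 RPKM with copper, against 107, 106 and 112 RPKM without.

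The genes that fell most under copper were thus among those that fell least under ethidium bromide. The role medians under copper were -1.06 for box C/D and -0.86 for H/ACA proteins, against -0.45 for small-subunit and -0.52 for large-subunit factors, so the snoRNP proteins fell more than the subunit factors here and less under ethidium bromide, while box C/D proteins were below H/ACA proteins in both. Across the 44 genes the changes of these comparisons, which share no sample, had a Pearson r of -0.48 (Spearman rho -0.46). By contrast, the ethidium bromide change and the rho0 change of the INH1 set had r = 0.64 (rho 0.62), and ethidium bromide and mig1 deletion had r = 0.61 (rho 0.65). These are descriptions over n = 44 genes that share libraries within each comparison and are co-regulated, so the genes are not independent points. The members' log2 level in WT cells of the puf3-15A set had r = 0.41 with the ethidium bromide change and r = -0.43 with the copper change, so level moves with both orders. Its part in them was not tested.

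Other genes separated the treatments too. Ribosomal proteins had a median of -0.90 under copper, below that of the members, with 134 of 137 lower and 1 higher. Their share of summed RPKM was 11.2% to 11.4% with copper, against 19.2% to 19.5% without. Of the 17 RNA polymerase I genes, 11 were lower and 3 higher, with the catalytic subunits RPA190 and RPA135 at -1.16 and -1.06. The other small-subunit factors were less affected, with 34 of 43 lower, 1 higher and a median of -0.35, and the other large-subunit factors had 43 of 46 lower and a median of -0.40. Stress genes were higher in 27 of 30 cases, and HSP12 rose by 1.85.

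**Figure D3:**
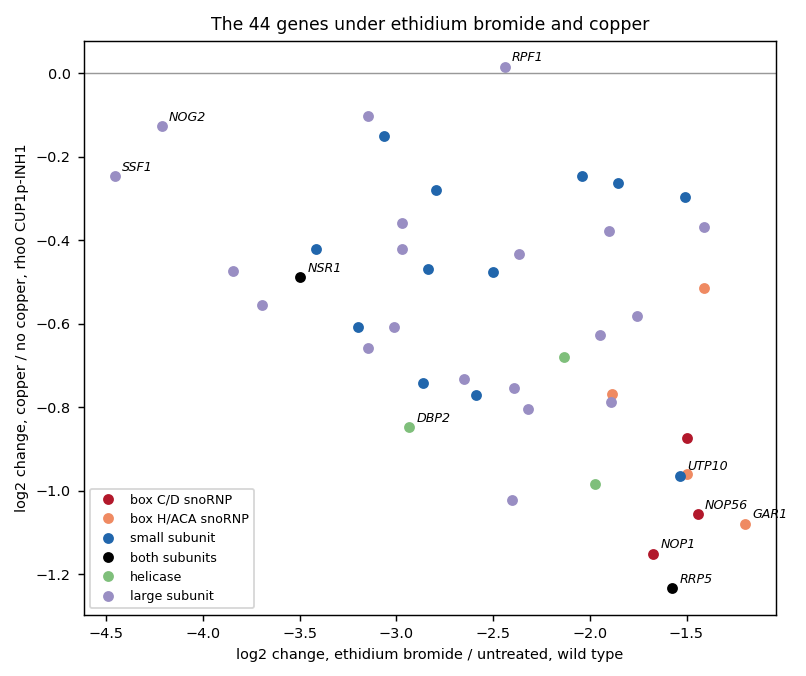
log2 change of each of the 44 genes after ethidium bromide in WT cells (x axis) and after copper in rho0 cells with CUP1p-INH1 (y axis), coloured by role. Box C/D proteins such as NOP1 sit at the lower right and SSF1 and NOG2 at the upper left, and only RPF1 lies above 0 on the y axis, at 0.01.

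Loss of the ATP synthase subunit gene ATP7 lowered the members in both sets that have it. In the OXPHOS set 44 of 44 were lower, where 24.4% of genes were called lower, with a median of -0.56. In the puf3 set 43 of 44 were lower, where 25.2% were, with a median of -0.87. DBP2 changed most in both. In the puf3 set it had 129, 120.4 and 129 RPKM in atp7 cells, against 514, 313 and 338 RPKM in WT cells, and the groups did not overlap. Its log2 change was -1.67 (SE 0.25, adjusted p = 5.9e-05) there and -0.90 (SE 0.22) in the OXPHOS set. NSR1 and SSF1 followed in the puf3 set at -1.59 and -1.51. NOP10 was the exception in that set, at -0.14 (adjusted p = 0.44), and had the smallest fall in the OXPHOS set at -0.31.

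In the OXPHOS set the size of the atp7 effect depended on the WT libraries used. Against libraries 1 to 3 alone 41 members were lower (median -0.25), and against libraries 4 to 6 alone 44 were (median -0.87). The members' changes in these sets, which share no sample, had r = 0.82 (rho 0.71) over 44 genes. In both sets all 43 other small-subunit factors were lower. Ribosomal proteins were lower in 133 of 137 cases in the OXPHOS set and in 122 (1 higher) in the puf3 set, and stress genes were higher in 25 and 29 of 30 cases. The 11 a-specific and haploid genes were higher in the puf3 set (11 called, median 1.53), where WT cells were low in them.

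With all libraries fitted, loss of mitochondrial DNA gave a less even result than loss of ATP7. In these fits rho0 cells stood above atp7 cells where both were compared directly. In the OXPHOS set a difference in how the libraries were made cannot be told apart from the strains in that comparison. There the order of rho0 and atp7 cells rested on which WT trio each strain was set against, as given below. In the puf3-15A set 36 of 44 members were lower in rho0 than in WT cells, where 26.2% of genes were called lower, with a median of -0.27. BRX1, a Brix-domain factor of the large subunit, changed by -0.55, and NOP1 and NOP56 by -0.53 each. NOP56 had 377, 375 and 366 RPKM in rho0 cells, against 512, 548 and 543 RPKM in WT cells, and the groups did not overlap. DBP2, RPF1, NOG2 and NOP10 were not called there, at -0.04, -0.05, -0.07 and -0.10. Box C/D proteins had the lowest role median, -0.53, against -0.24 for small-subunit and -0.27 for large-subunit factors.

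In the OXPHOS set 6 of 44 were lower in rho0 cells, where 23.6% of genes were called lower, with a median of -0.13. These were NOP1, NOP56, NOP58, GAR1, BRX1 and TIF6. NOP56 had 507, 482 and 442 RPKM in rho0 cells, against 499, 572, 539, 660.3, 667 and 664 RPKM in WT libraries 1 to 6, and the groups overlapped. Against WT libraries 4 to 6 alone, whose files share the feature order of the rho0 files, all 44 members were lower (median -0.42). Against libraries 1 to 3 alone 24 were higher and 2 lower (median 0.16). The direction for the members as a group thus rests on which WT libraries are used, and the fit with all 6 mixes these trios. With the same trio as reference for both strains, the rho0 median stood above the atp7 median. However, the rho0 median against libraries 4 to 6 (-0.42) stood below the atp7 median against libraries 1 to 3. The labels do not say which trio was made with the rho0 libraries or with the atp7 libraries, and this was not tested. Leaving out WT library 1 gave 11 lower, and leaving out WT library 4, WT library 5 or rho0 library 3 gave 3.

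In the puf3 set 6 of 44 were lower in rho0 than in WT cells, where 17.8% of genes were called lower, with a median of -0.22. Without WT library 1, whose members stood high, 3 members were called, all higher. The count was 21 without WT library 2, 12 without WT library 3, 14 lower and 1 higher without rho0 library 1, and 1 without rho0 library 2 or 3. In direct comparison with atp7 cells of the same set, no WT mean enters the difference. The other libraries of the set enter the rescaling, the filter on low values and the estimate of spread. The count was 43 when only the compared libraries were fitted. With all libraries 44 of 44 members were higher in rho0 than in atp7 cells, where 18.1% of genes were called higher, with a median of 0.62. DBP2 had 383, 337 and 348 RPKM in rho0 cells, against 129, 120.4 and 129 RPKM in atp7 cells, and the log2 difference was 1.59 (SE 0.25).

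In the OXPHOS set the same direct comparison gave 19 of 44 higher in rho0 than in atp7 cells, where 17.9% of genes were called higher, with a median of 0.45. Leaving out libraries one at a time gave 1 (without rho0 library 1) to 12 (without atp7 library 2), and it was 42 when only rho0 and atp7 libraries were fitted. The spread of the pooled WT libraries enters this test. NSR1 had 662, 639 and 598 RPKM in rho0 cells, against 367, 416 and 355 RPKM in atp7 cells. These levels do not involve that spread, but they do not separate the strains from how the libraries were made. Members differed between the WT trios of this set, and such a difference between rho0 and atp7 libraries was not tested.

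Across the 4 mRNA sets the rho0 effect was tested for a difference in 1 model, with an F test over sets. It was called for 3 of 44 members, DBP2, NSR1 and NOP10, where 20.6% of genes were called. DBP2 changed by -1.24 in the INH1 set, against -0.05, -0.08 and -0.04 in the OXPHOS, puf3 and puf3-15A sets. NSR1 changed by -1.21 in the INH1 set, against 0.00, -0.21 and -0.22 in those sets. NOP10 stood at 0.34 in the puf3 set, against -0.15, -0.10 and -0.36 in the OXPHOS, puf3-15A and INH1 sets. Without the INH1 set, whose WT cells had a-specific genes near 0, the test called 0 members and 450 of 6828 genes, and without any single library of that set it also called 0.

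That count rested on the libraries used. It was 44 with OXPHOS-set WT libraries 1 to 3 alone (43.2% of genes called) and 23 with libraries 4 to 6 alone (31.2%). Without puf3-set WT library 1 it was 24 (32.8%), and without puf3-set rho0 library 1 it was 9 (33.7%). Without OXPHOS-set WT library 1 it was 6 (21.4%), and without library 4, 5 or 6 it was between 10 and 13 (22.1% to 22.6%). The share of all genes called was thus also above the 20.6% of the main fit.

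Pair by pair in the same model, with all libraries, members were called in the 3 pairs that hold the INH1 set, which had the lowest rho0 median. The rho0 effect was higher (a smaller fall) in the OXPHOS than in the INH1 set for 17 members, with a median difference of 0.61 and 8.51% of genes called higher. It was higher in the puf3 than in the INH1 set for 4 members (median 0.53; 4.20% of genes) and in the puf3-15A than in the INH1 set for 1 (median 0.43; 2.45% of genes). These pairs share the INH1 libraries. Of the pairs without the INH1 set, OXPHOS minus puf3, OXPHOS minus puf3-15A and puf3 minus puf3-15A each had 0 members called (limma; 1, 0 and 3 members at an unadjusted p below 0.05), with medians of 0.08, 0.16 and 0.07, where 9.40%, 3.17% and 5.98% of genes were called in either direction.

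The pairwise counts moved with the WT trio as well. With OXPHOS-set WT libraries 1 to 3 alone they were 43, 31 and 15 for the OXPHOS, puf3 and puf3-15A sets against the INH1 set, and 10 and 18 for OXPHOS minus puf3 and minus puf3-15A. With libraries 4 to 6 alone they were 4, 32 and 17 against the INH1 set. For OXPHOS minus puf3 the direction turned, with 4 members lower (median -0.23). Leaving out puf3-set WT library 1 gave 34 for OXPHOS minus INH1 and 34 for puf3 minus INH1. The members' rho0 changes had r = 0.81 (rho 0.79) between the OXPHOS and puf3-15A sets and r = 0.06 (rho 0.07) between the puf3-15A and INH1 sets, as descriptions over 44 genes in sets that share no sample.

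Deletion of COR1 or COX9 changed no member past the threshold when all 6 WT libraries were used. The medians were -0.20 in cor1 cells and -0.22 in cox9 cells, 3 and 6 members had an unadjusted p below 0.05, and 6.22% and 6.62% of genes were called in either direction. NOP1 had 958, 890 and 943 RPKM in cor1 cells and 920, 922 and 899.6 RPKM in cox9 cells, against 884, 952, 911, 1145, 1219 and 1156 RPKM in WT libraries 1 to 6. The mutant libraries lay close to WT libraries 1 to 3 and below libraries 4 to 6. Against libraries 4 to 6 alone all 44 members were lower in each mutant (median -0.53 in both), and against libraries 1 to 3 alone 1 member was higher in each (medians 0.10 in cor1 cells and 0.08 in cox9 cells).

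With all libraries of the puf3 set fitted, loss of PUF3 moved the members' mRNA in opposite directions in WT and rho0 cells. Puf3 binds mRNAs for mitochondrial proteins and controls their decay and translation. In the WT background 24 of 44 members were higher in puf3 cells, where 8.82% of genes were called higher, with a median of 0.44. IMP4, a component of the small-subunit processome, had 142, 150.0 and 141 RPKM in puf3 cells, against 125, 84.9 and 91.7 RPKM in WT cells. The groups did not overlap, and the log2 change was 0.59 (SE 0.15, adjusted p = 0.019). DBP2 had the largest value at 0.77 without passing the threshold (adjusted p = 0.0502), with 476, 739 and 688 RPKM in puf3 cells, against 514, 313 and 338 RPKM in WT cells. NOP4, an RNA-binding factor of the large subunit, rose by 0.57.

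This result rested on few libraries, and the count was 0 when only puf3 and WT libraries were fitted. Without WT library 1, 44 members were higher; without WT library 2, WT library 3 or puf3 library 2 the count was 0, and without puf3 library 3 it was 8. All 11 a-specific and haploid genes were higher in puf3 than in WT cells (median 1.77), at 0.242% to 0.266% of summed RPKM in puf3 cells against 0.0640% to 0.0869% in WT cells, and 12 of 30 stress genes were lower (median -0.53). Their part in the members' change was not tested. None of the 137 ribosomal proteins was called.

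In rho0 cells, loss of PUF3 lowered 35 of 44 members, where 15.5% of genes were called lower, with a median of -0.51. DBP2 had 116, 222 and 234 RPKM in rho0 puf3 cells, against 383, 337 and 348 RPKM in rho0 cells, a log2 change of -1.01 (SE 0.25, adjusted p = 0.0076). RRP5 had 86.9, 80.2 and 87.3 RPKM in rho0 puf3 cells, against 125, 138 and 138 RPKM in rho0 cells, a log2 change of -0.70. Neither gene overlapped between groups. SSF1 was not called, at -0.21 (adjusted p = 0.53). The other large-subunit factors had 31 of 46 lower, ribosomal proteins 90 of 137, and stress genes 17 of 30 higher.

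The difference of the PUF3 effect between rho0 and WT backgrounds was negative and called for 43 of 44 members, where 19.8% of genes were called lower, with a median of -0.93. DBP2 differed by -1.78 (SE 0.35, adjusted p = 0.0013), and SSF1 was the member not called, at -0.75 (adjusted p = 0.087). The WT cells in this difference are those low in a-specific and haploid genes, whose part in it was not tested. In atp7 cells loss of PUF3 changed 0 members (limma; 0 at an unadjusted p below 0.05), where 2.23% of genes were called, and values ran from -0.20 to 0.03. NOP1 had 576, 582 and 584 RPKM in atp7 puf3 cells, against 604, 556 and 582 RPKM in atp7 cells. The difference between the atp7 and WT backgrounds was called for 0 of 44, where 7.44% of genes were called, although 35 had an unadjusted p below 0.05 and the median was -0.51. Without WT library 1 it was called for 44.

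The puf3-15A allele, measured in another set, had smaller median changes. In WT background 36 of 44 members were higher with the allele, where 6.33% of genes were called higher, with a median of 0.23. IMP3, which acts with IMP4 in the processome, had 93.2, 99.7 and 90.1 RPKM in puf3-15A cells, against 63.3, 82.6 and 76.9 RPKM in WT cells, and rose most, by 0.39 (SE 0.08, adjusted p = 0.0090). DBP2 had 282, 291 and 296 RPKM in puf3-15A cells, against 204, 251 and 244 RPKM in WT cells, a log2 change of 0.36. Neither gene overlapped between groups. The count was 18 without WT library 1, 16 without puf3-15A library 2, 13 without puf3-15A library 3 and 8 when only these groups were fitted. Here a-specific and haploid genes had 1 of 11 called, while 19 of 30 stress genes were lower (median -0.33).

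In rho0 cells the allele left 1 of 44 members lower, NHP2 at -0.18, where 8.74% of genes were called lower, with a median of -0.08. The difference of the allele's effect between rho0 and WT backgrounds was negative and called for 33 of 44, where 9.31% of genes were called lower (median -0.31), with IMP3 at -0.51 (SE 0.11, adjusted p = 0.011). That count was 18 without rho0 library 1 and 21 without rho0 puf3-15A library 2. The members' changes by puf3 deletion and by the allele in WT cells, from sets that share no sample, had r = 0.55 (rho 0.48) over 44 genes.

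**Figure D4:**
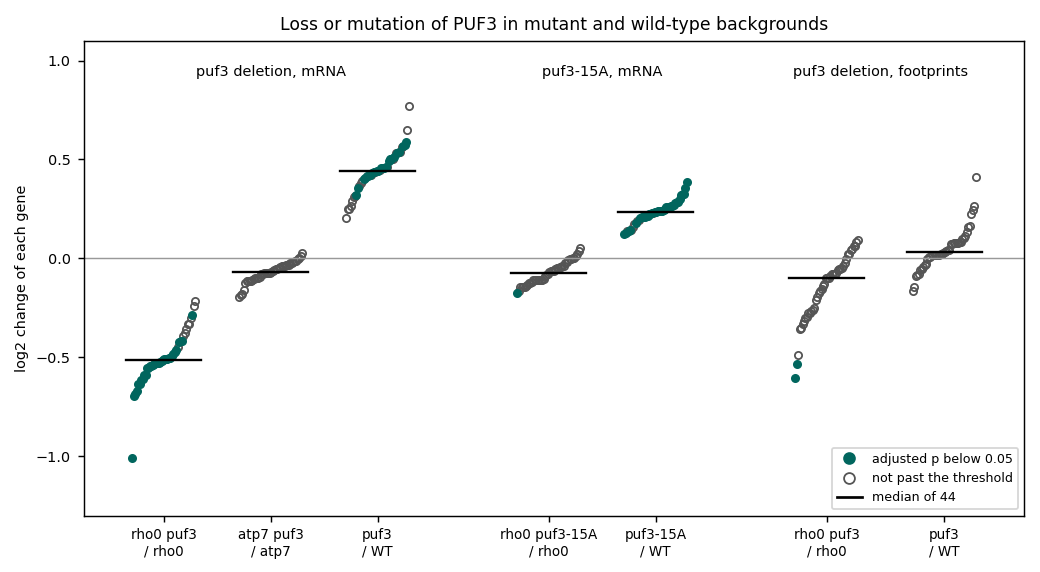
log2 change of each of the 44 genes (points, sorted) by deletion of PUF3 or by the puf3-15A allele in rho0, atp7 and WT cells, for mRNA and footprints; filled points have an adjusted p below 0.05 and bars are medians. The mRNA medians are -0.51 in rho0, -0.07 in atp7 and 0.44 in WT cells for the deletion.

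Footprints, which report how much ribosomes occupy each mRNA, showed members lower in rho0 cells. Of the 44, 26 were lower and 1 higher, where 12.1% and 12.6% of genes were called lower and higher, with a median of -0.43. RRP5 had 85.8 and 83.3 footprint RPKM in rho0 cells, against 137 and 127 in WT cells, a log2 change of -0.76 (SE 0.10, adjusted p = 0.0027). NSR1 and DBP2 changed by -0.73 and -0.72. The member that rose was NOP10 (YHR072W-A, chromosome VIII, 241664 to 241840), with 865 and 839 footprint RPKM in rho0 cells, against 665 and 534 in WT cells, and a log2 change of 0.39 (SE 0.10, adjusted p = 0.030). Its gene is the shortest of the 44, at 177 bp.

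The footprint count was 5 without WT library 1, 14 without WT library 2, 8 without rho0 library 2, 12 with no rescaling and 6 when only these groups were fitted. All 11 a-specific and haploid genes were higher in rho0 cells (median 4.66), being near 0 in footprint WT cells, and 22 of 30 stress genes were higher. Their part in the members' change was not tested. Loss of PUF3 changed 0 members in WT cells (limma; median 0.03; 1 at an unadjusted p below 0.05; 1.34% of genes were called). In rho0 cells it lowered 2, DBP2 at -0.60 and NOP1 at -0.53, where 3.13% of genes were called lower. Both calls were lost with no rescaling, and the members' median of -0.10 then turned to 0.06.

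Footprints relative to mRNA placed the members in the middle of the range in WT cells, with a median log2 ratio of -0.65 against -0.66 for 5619 features. Changes of that ratio, the translational efficiency, were called for 0 of 44 members in rho0 against WT cells, in puf3 against WT cells and in rho0 puf3 against rho0 cells, where 7.43%, 0.702% and 7.20% of genes were called (limma; 5, 7 and 10 members at an unadjusted p below 0.05). The medians were -0.18, -0.39 and 0.37. The labels do not say whether footprint and mRNA libraries came from the same cultures, and the WT cells of these sets differ in a-specific genes. Without puf3-set WT library 1, 13 and 11 members were called lower for rho0 and for puf3.

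**Figure D5:**
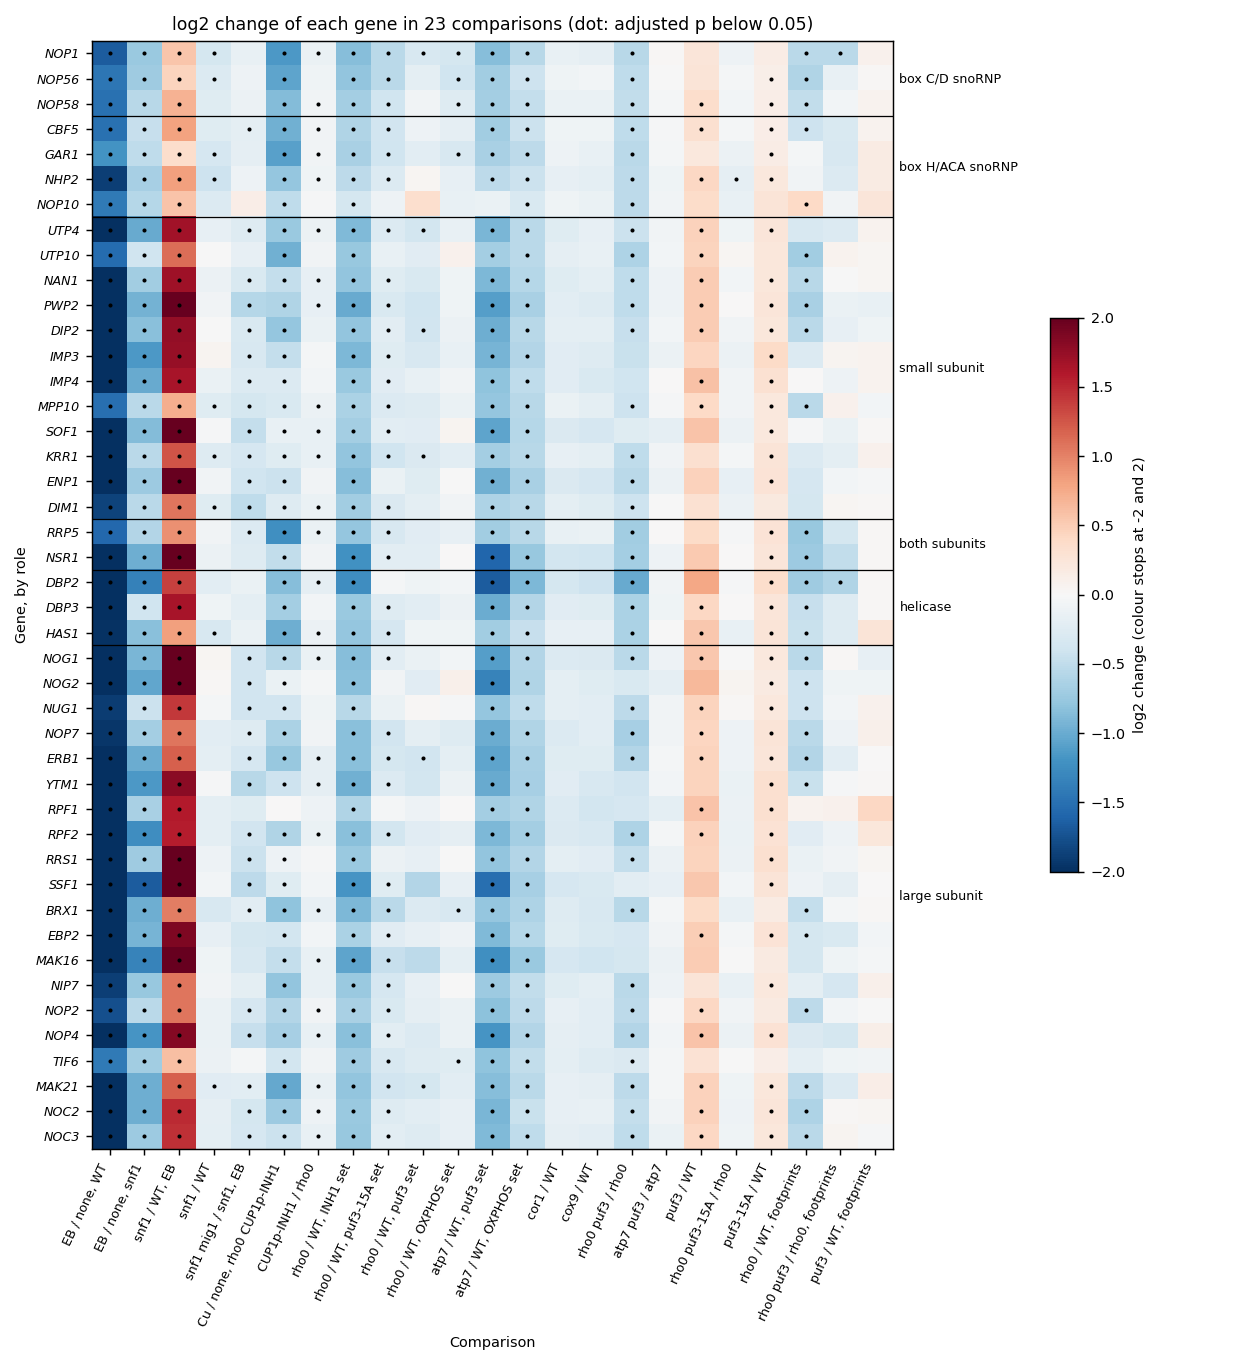
log2 change of each of the 44 genes (rows, by role) in 23 comparisons (columns); dots mark an adjusted p below 0.05, and colours stop at -2 and 2. The ethidium bromide column in WT cells is the darkest, and the atp7 and INH1-set rho0 columns are lower for nearly every gene.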

How the data were processed

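The authors deposited RPKM values per gene and library for all 7126 features. Build R64, STAR 2.6.1a, featureCounts, CASAVA 1.9 and edgeR 3.28.1 appear in the submitters' processing notes; strand use, read filters and how reads with several matches were handled were not given in the sources used here. Read numbers were recovered from RPKM times gene length for depth only, and at least 95.1% of values came out whole within 0.05. Of the identifiers, 6048 matched a RefSeq locus tag.

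Within each set, libraries were rescaled by unweighted trimmed means of log ratios (30% and 5% trimmed). A gene was kept if it reached 1 RPKM in a number of libraries no smaller than the smallest group, and log2(RPKM + 1) was tested with limma 3.58.1 in R 4.3.3 (trend, Benjamini-Hochberg 0.05 over all genes tested), with 1 mean per group over all libraries of a set. Fold changes are on that rescaled scale, which understates changes of low genes. Translational efficiency was an interaction of assay and genotype. Tables and plots used Python 3.11.15, pandas 2.3.3, numpy 2.4.6 and matplotlib 3.10.9. The test was checked on simulated data with independent noise per gene. Those data hold no co-regulation and no difference between library trios, so the check does not cover counts that move with the libraries used.

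The members, gene lists and tests were chosen with earlier results of these data known. Named members are 8 example genes, the 3 lowest and 3 highest of each comparison and those called against the median; other lists give up to 4 genes with the smallest p, with HSP12. Genes named by role beside these were chosen after their values were seen. Replicate numbers paired libraries in the MIG1 set, where residuals of all 3 same-number pairs correlated above 0.1 (lowest 0.129, median 0.342), and in no other set. A description of promoter motifs was planned and not made. Alternatives were other scalings, filters, pseudocounts, fits and libraries left out. Most counts from these alternatives are given without the share of all genes called. Such counts do not show whether the members moved more than other genes did.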

Additional observations from a re-analysis of the deposited data

Results flagged for a closer look

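Effects that differed between backgrounds or sets were called by a test of the difference itself. The ethidium bromide effect differed between snf1 and WT cells for 44 of 44 members, the puf3 deletion effect differed between rho0 and WT cells for 43, and the puf3-15A effect differed between rho0 and WT cells for 33. The rho0 effect differed across the 4 mRNA sets for 3 members by an F test. Pair by pair it differed between the OXPHOS and INH1 sets for 17 members, between the puf3 and INH1 sets for 4 and between the puf3-15A and INH1 sets for 1. With OXPHOS-set WT libraries 1 to 3 alone the F test called 44 members and with libraries 4 to 6 alone 23. It called 43.2% and 31.2% of all genes in these fits, against 20.6% with all libraries. In the WT group of 6 libraries, none of the 44 genes and not the members' share had a library apart from the other 5 by the test for a single distant value (45 tests). The libraries fell into trios instead. Where values form trios this test cannot flag a single library, so no conclusion is drawn from it.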

How the results depend on the processing

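Counts of called members stayed within 1.5 times their value with median-ratio size factors, no filter, pseudocounts of 0.1 and 5, and footprints and mRNA rescaled together. With no rescaling the count was 1 for cox9, 13 for rho0 in the puf3 set (12 lower, 1 higher), 8 for the difference of the puf3 effect between atp7 and WT cells, 12 for puf3-15A in rho0 cells, 3 for snf1, 12 for rho0 footprints, 0 for puf3 footprints in rho0 cells, 6 for translational efficiency of rho0 puf3 against rho0 cells, and 9 for the rho0 effect across sets. No rescaling moved the median of all genes by over 0.1, to 0.121 for snf1, 0.246 for snf1 in ethidium bromide, 0.122 for its interaction, 0.0976 for rho0 in the INH1 set, 0.105 for rho0 footprints and 0.151 for puf3 footprints in rho0 cells. It also moved the share of all calls that were lower by over 10 points, to 33.1% for atp7 (54.0% with rescaling) and 35.5% (48.5%) for rho0 in the OXPHOS set, 35.7% (46.3%) for atp7, 67.9% (48.6%) for rho0 against atp7 and 42.7% (53.6%) for the rho0 interaction in the puf3 set, 74.8% (54.1%) for puf3-15A, 70.5% (48.6%) for it in rho0 cells, 26.1% (55.4%) for snf1, 25.7% (51.8%) for it in ethidium bromide, 35.1% (50.1%) for that interaction, 69.0% (48.7%) for mig1, 37.3% (50.6%) for rho0 in the INH1 set, 33.6% (49.0%) for rho0 footprints, 32.3% (69.1%) for puf3 footprints in rho0 cells, and 32.4% (52.2%) and 21.4% (61.2%) for translational efficiency in rho0 and in rho0 puf3 cells. With only the compared groups fitted, which leaves fewer samples for the spread, the count was 1 for rho0 and 42 for rho0 against atp7 in the OXPHOS set, 0 for rho0, 0 for puf3 and 3 for puf3 in atp7 cells in the puf3 set, 8 for puf3-15A and 5 for it in rho0 cells, 6 for rho0 footprints, 0 for puf3 footprints in rho0 cells and 3 for translational efficiency of rho0 puf3 against rho0 cells. Against WT libraries 1 to 3 alone the count was 1 for cor1, 1 for cox9 and 26 for rho0 (24 higher), and against libraries 4 to 6 alone it was 44 for each. With the replicate number as a block it was 1 for cox9, 28 for rho0 in the OXPHOS set (27 higher), where the numbers of WT libraries 4 to 6 have no partner, 41 for rho0 against atp7 there, and 43 for the rho0 effect across sets (43, 41 and 26 for the OXPHOS, puf3 and puf3-15A sets against the INH1 set, 23 and 36 for OXPHOS minus puf3 and minus puf3-15A); it moved no other count by over 1.5 times. For the rho0 effect across sets with that block, 40.6% of genes were called, against 20.6% in the main fit. Outside the MIG1 set the libraries share only a number, although all 8 footprint libraries correlated best with their own number (lowest 0.0234). Without the INH1 set, an alternative chosen after seeing the data, the rho0 effect differed across sets for 0 members. With OXPHOS-set WT libraries 1 to 3 alone, also added after seeing the data, it differed for 44 members, where 43.2% of genes were called. Pair by pair it then differed for 10 (OXPHOS minus puf3), 18 (OXPHOS minus puf3-15A), 43, 31 and 15 (OXPHOS, puf3 and puf3-15A minus INH1). With libraries 4 to 6 alone it differed for 23, where 31.2% of genes were called. Pair by pair it then differed for 4 lower (OXPHOS minus puf3), 1 (puf3 minus puf3-15A), 4, 32 and 17 (the same 3 against INH1). The cause of these changes was not tested.

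Leaving out each replicate in turn gave counts of 0 to 2 for cox9, 3 to 11 for rho0 and 1 to 12 for rho0 against atp7 in the OXPHOS set. In the puf3 set it gave 1 to 21 for rho0 (3, all higher, without WT library 1), 0 to 44 for puf3 and 0 to 44 for the difference of the puf3 effect between atp7 and WT cells. For puf3-15A it gave 13 to 44, in rho0 cells 0 to 3, and for the difference between these 18 to 38. It gave 3 to 14 for snf1, 14 to 21 for the construct without copper, 5 to 25 for rho0 footprints and 0 to 1 for puf3 footprints in rho0 cells. Translational efficiency gave 0 to 13 for rho0, 0 to 11 for puf3 and 0 to 1 for rho0 puf3 against rho0 cells, and the rho0 effect across sets gave 0 to 24. Pair by pair that gave 3 to 34 for OXPHOS minus INH1, 0 to 34 for puf3 minus INH1, 0 to 2 for puf3-15A minus INH1, 0 to 2 for OXPHOS minus puf3, 0 to 5 for puf3 minus puf3-15A and 0 for OXPHOS minus puf3-15A. For ethidium bromide in either strain, its interaction with snf1 and rho0 in the INH1 set all 44 stayed called, and 43 for copper. For the 8 example genes, 3498 of the alternative values kept their side of the threshold, 91 gained and 139 lost it. Footprint groups had 2 libraries each, with fewer reads than the mRNA libraries, which limits their precision.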
